A study of Mus musculus with 14 samples.

Results

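The 78 genes described here encode the proteins of the mitochondrial ribosome that carry the names Mrpl and Mrps. They were taken by symbol from the 26270 gene identifiers of the count files, with pseudogenes left out, and all 78 passed the filter on low counts, among 14327 genes tested. By name 49 belong to the large subunit and 29 to the small one. Structures of the mammalian mitoribosome place Mrps18a and Mrps30 in the large subunit, and Mrps36 is a component of the 2-oxoglutarate dehydrogenase complex, so that 51 genes were counted as large and 26 as small subunit genes and Mrps36 as neither.

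The libraries were made from mouse embryonic fibroblasts (MEFs), primary cells grown from E13.5 embryos and cultured here in 3% oxygen. Tip60, the lysine acetyltransferase encoded by Kat5, was deleted through exposure to 4-hydroxytamoxifen (250 nM). The groups were KO (Tip60-/-) at day 5 (n = 4), control (Tip60+/+) at day 5 (n = 4), KO at day 3 (n = 3) and control at day 3 (n = 3). The treatment text is the same for every sample and names no exception for control cells. Neither the Cre driver nor the exons removed are stated in the sources used here. The 7 KO libraries came from 4 embryos and the 7 control libraries from 4 others, and replicates 1 and 2 of control at day 3 share an embryo. No embryo supplied both genotypes, so genotype and embryo cannot be told apart. Of the KO libraries 5 were male, and of the control libraries 1. The labels give litters 1, 2 and 3 for KO libraries. They give litter 1 for every control but replicate 4 at day 5, of litter 2. The p-values measure the spread between these cultures.

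Mitochondrial ribosomes translate the few mRNAs of mitochondrial DNA, which encode core subunits of the respiratory chain and of ATP synthase. Their rRNAs are transcribed in the organelle, whereas every protein of the ribosome is encoded in the nucleus, made in the cytosol and imported. About the bacterial plan of head, body, central protuberance, factor-binding stalk and peptide exit tunnel, the mammalian particle has gained many proteins that bacteria lack. Among the members, 30 large and 16 small subunit proteins were counted as having bacterial relatives. The other 21 large and 10 small subunit proteins were counted as specific to mitochondria. Mrps18a and Mrps18b, although relatives of bacterial S18, were placed in this second class. The genes lay on 17 chromosomes.

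The promoters of 5 members are shown because these genes rank among the most changed in KO cells and hold between them 3 sequence motifs known from promoters of mitochondrial genes, a choice made with both in view. Mrps18b, Mrps27 and Mrpl17 were lower in KO cells and Mrpl27 and Mrpl49 higher, as detailed further on. Each stretch runs from 250 bases before the annotated start of transcription to 50 bases after it, read from 5′ to 3′ along the gene in RefSeq's GRCm38.p6 assembly, and capitals mark the motif matches on either strand.
Mrps18b (chr17:35916391-35916690, minus strand): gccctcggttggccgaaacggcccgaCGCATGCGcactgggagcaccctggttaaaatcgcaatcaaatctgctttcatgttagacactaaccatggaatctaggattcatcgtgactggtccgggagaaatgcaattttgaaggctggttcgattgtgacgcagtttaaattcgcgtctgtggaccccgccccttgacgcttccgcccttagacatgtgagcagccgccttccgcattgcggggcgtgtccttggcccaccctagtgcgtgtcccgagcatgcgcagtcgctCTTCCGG
Mrps27 (chr13:99344536-99344835, plus strand): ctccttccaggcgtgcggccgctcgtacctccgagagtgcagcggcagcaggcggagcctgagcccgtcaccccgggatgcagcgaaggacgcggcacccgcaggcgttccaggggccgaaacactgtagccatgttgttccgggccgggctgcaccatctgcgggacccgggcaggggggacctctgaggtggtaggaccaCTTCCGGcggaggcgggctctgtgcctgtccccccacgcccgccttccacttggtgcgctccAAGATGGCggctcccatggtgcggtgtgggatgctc
Mrpl17 (chr7:105811038-105811337, minus strand): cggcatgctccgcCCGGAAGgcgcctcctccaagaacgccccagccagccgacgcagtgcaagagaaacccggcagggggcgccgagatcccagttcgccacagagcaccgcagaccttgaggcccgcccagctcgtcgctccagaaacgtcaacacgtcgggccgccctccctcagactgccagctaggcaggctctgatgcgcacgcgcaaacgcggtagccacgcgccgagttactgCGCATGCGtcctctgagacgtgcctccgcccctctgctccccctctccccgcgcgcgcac
Mrpl27 (chr11:94653541-94653840, plus strand): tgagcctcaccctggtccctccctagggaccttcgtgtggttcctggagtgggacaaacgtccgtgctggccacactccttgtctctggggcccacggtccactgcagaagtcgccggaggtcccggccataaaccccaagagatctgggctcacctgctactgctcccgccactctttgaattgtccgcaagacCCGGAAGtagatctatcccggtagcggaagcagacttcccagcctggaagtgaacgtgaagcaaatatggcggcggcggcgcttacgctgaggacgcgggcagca
Mrpl49 (chr19:6057706-6058005, minus strand): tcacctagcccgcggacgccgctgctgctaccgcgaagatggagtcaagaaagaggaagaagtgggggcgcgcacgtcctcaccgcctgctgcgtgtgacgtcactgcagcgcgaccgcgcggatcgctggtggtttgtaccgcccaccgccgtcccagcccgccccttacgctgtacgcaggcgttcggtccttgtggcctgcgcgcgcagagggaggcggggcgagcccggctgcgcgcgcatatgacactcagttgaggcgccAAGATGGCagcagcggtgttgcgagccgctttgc
The capitals are CGCATGCG, the core recognised by NRF1, CCGGAAG or its complement CTTCCGG, the core of ETS factors such as GABP, and AAGATGGC or its complement GCCATCTT, a YY1 element. RefSeq promoters were found for 69 members, in 75 windows, and for 10994 tested genes, in 14051 windows. Windows were counted, not genes, and 3 members had more than 1. The NRF1 core occurred in 9.33% of these windows, against 3.54% of the windows of all tested genes. The ETS core occurred in 34.7%, against 16.2%, and the YY1 element in 16.0%, against 4.09%. The E-box CACGTG, bound by Myc, occurred in 9.33% of the members' windows and in 9.68% of those of all tested genes. The windows of Mrpl2 overlap, so the same E-box was counted in each of them. The ETS core ends and the YY1 element begins with AAG, so that these matches can overlap. Both strands were searched, and a match describes the sequence only.

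Kat5 checks the labels. It averaged 19.9 ± 1.41 CPM (read counts scaled to a common library size) in KO and 31.9 ± 0.410 CPM in control at day 3 (n = 3 each, SD), and 18.4 ± 1.14 and 30.9 ± 0.923 CPM in KO and control at day 5 (n = 4 each). The log2 fold changes were -0.68 ± 0.085 and -0.75 ± 0.070 (SE; adjusted p = 2.02e-05 and 1.59e-06, quasi-likelihood test of edgeR, Benjamini-Hochberg adjustment over 14327 genes), and exact permutation tests of the CPM gave two-sided p = 0.1 at day 3, the smallest that 3 against 3 allows, and 0.0286 at day 5. Unless stated otherwise, adjusted p-values and calls (adjusted p below 0.05) come from that edgeR test, and errors of log2 fold changes are SE. Reads from exons that were not deleted also count towards Kat5, so the level left does not measure how many cells kept the gene. Library totals ran from 2187168 counts (KO day 3 replicate 3, the shallowest) to 39203154. Control day 5 replicate 4, the only male control and the only one of another litter, stood apart from the other controls of its day. Chi-square per degree of freedom was 34.8 to 75.3 against it and 3.18 to 4.38 among the rest. Pairs of KO libraries ran from 5.29 to 47.1 at day 3 and from 5.40 to 33.2 at day 5. This measure included sex-linked genes and rises with depth. Fibroblast markers (11 genes) summed to 45700 to 56100 CPM in KO and 31200 to 36300 CPM in control at day 3, and to 31600 to 36600 CPM in KO and 32400 to 48800 CPM in control at day 5, and none was at 0. Summed cartilage markers (10 genes) were at 2320 to 2720 CPM in KO and 83.6 to 176 CPM in control at day 3, and at 1850 to 3840 CPM in KO and 189 to 2610 CPM in control at day 5, and Matn1 and Cnmd were at 0 in control at day 3. Of 5 other marker lists, several separated the groups. Macrophage markers (8 genes) summed to 34.3 to 42.4 CPM in KO and 50 to 69.5 CPM in control at day 3, and neural and glial markers (7 genes) to 315 to 425 and 160 to 254 CPM. At day 5 endothelial markers (7 genes) summed to 14.8 to 18.6 CPM in KO and 5.70 to 9.53 CPM in control, and skeletal muscle markers (8 genes) to 185 to 282 and 349 to 422 CPM, with Ckm at 0 in both. The sums did not always hold for single genes. Of 5 endothelial markers tested, 2 had a log2 fold change above 0 and 3 below it at day 5. Of 6 neural and glial markers tested, 4 lay above 0 and 2 below at day 3. All 7 tested macrophage markers at day 3 and all 4 tested muscle markers at day 5 lay below 0. The part of these lists in the results on mitoribosomal genes was not tested, and in bulk samples fewer cells of a type and less RNA per cell cannot be told apart.

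At day 3 mitoribosomal protein mRNAs changed modestly and in both directions. In KO cells 10 members were higher and 19 lower, and 49 were not called. Over all tested genes 50.9% were called, 24.6% as higher and 26.2% as lower, so that the share of members called, 37.2%, lay below the background and the share of falls, at 19 of 78, near it. The median log2 fold change was -0.07 over the members and -0.004 over all genes. The median size of the change regardless of sign was 0.206 among members, against 0.434 among all genes. Values ran from -1.66 (Mrps18b) to 0.64 (Mrpl27), and Mrps18b was the 1 member past a log2 change of 1 in either direction.

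At day 5, 14 members were higher and 20 lower in KO cells, and 44 were not called. The share called, 43.6%, again lay below that of all genes, 52.5% (26.3% higher and 26.2% lower). The members' median was -0.02, against 0.021 over all genes, and their median size of change was 0.200, against 0.373. All KO libraries lay above all control libraries for 14 members at day 3 and 13 at day 5 (all genes: 28.2% and 23.5%), and below them for 21 and 19 members (all genes: 29.6% and 23.8%). At both days 6 members were higher, 7.69% of the members against 15.6% of all genes, and 12 were lower, 15.4% against 17.3%. Those higher at both days were 60.0% of the members higher at day 3 and 42.9% of those higher at day 5 (all genes: 63.3% and 59.3%). Those lower at both were 63.2% and 60.0% (all genes: 65.8% and 65.9%). No member was called in opposite directions, and of all 14327 genes only 202 were. Against a minimum change of 1.5-fold, Mrps18b and Mrps6 alone were called at day 3 and none at day 5. By that measure 1372 of all 14327 genes were higher and 907 lower at day 3, and 1058 and 652 at day 5. Upper-quartile scaling moved the median of all genes to 0.122 at day 3 and 0.14 at day 5, and with it 15 members were higher and 12 lower at day 3 and 20 higher and 10 lower at day 5. Among all genes it gave 4572 higher and 2790 lower at day 3 and 4991 and 2761 at day 5. Without scaling factors the split at day 5 was 17 higher and 13 lower (all genes: 4466 and 3103). Which direction held more members thus depended on the scaling, and at day 3 the same held for all genes.

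**Figure D1:**
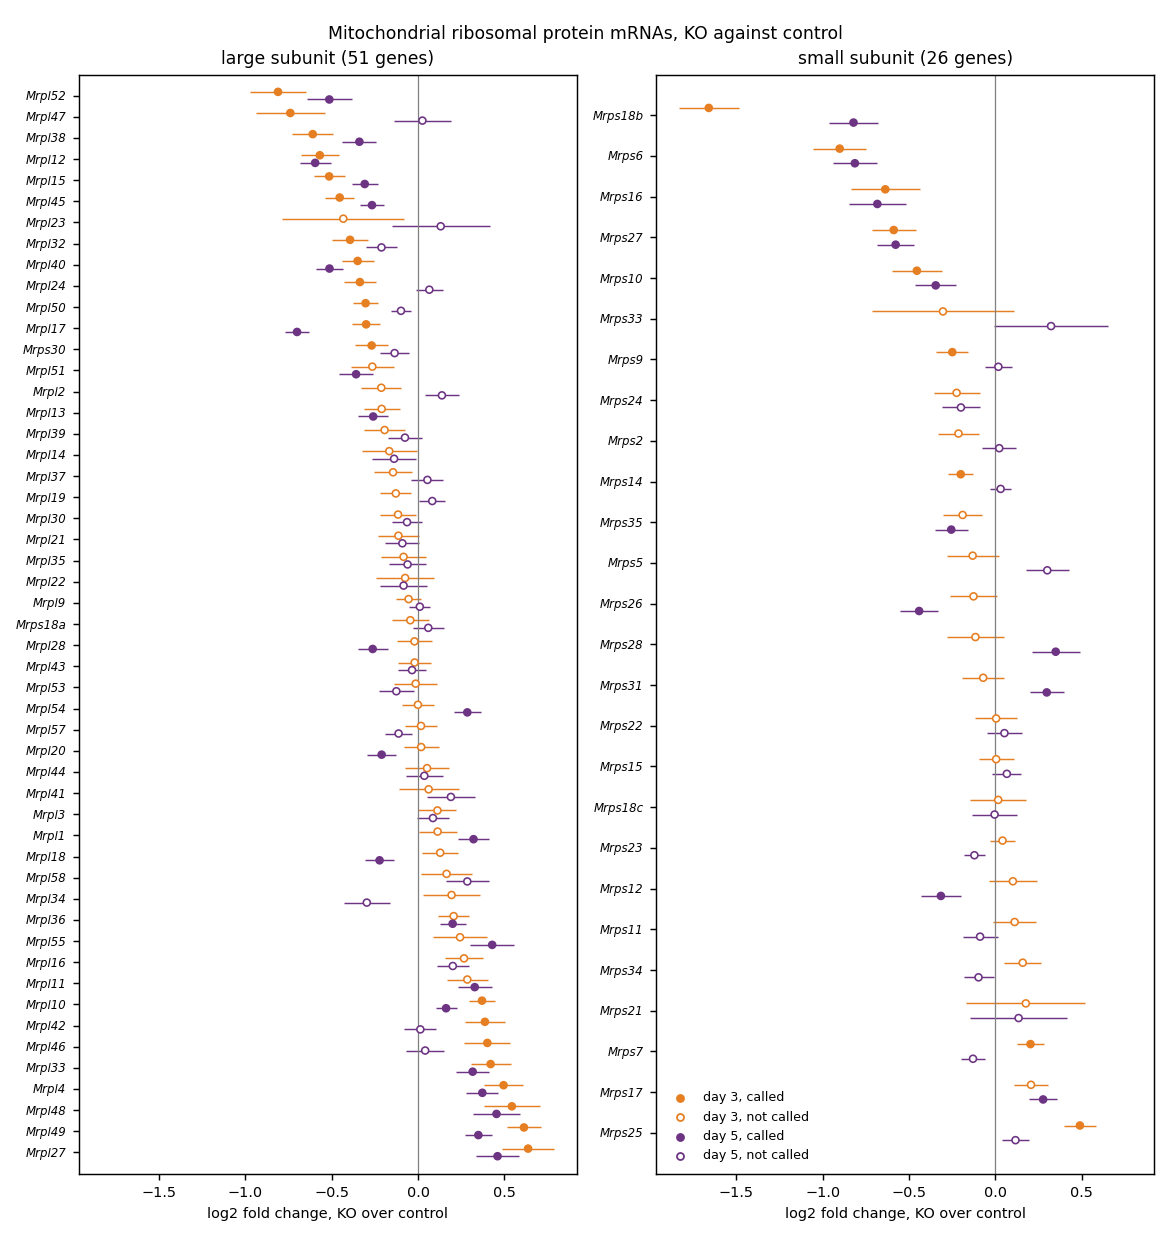
Log2 fold change of KO over control for each large (left) and small (right) subunit gene at day 3 (orange) and day 5 (purple), with bars of 1 SE; filled points were called at an adjusted p below 0.05. Most points lie within 0.5 of 0 in both subunits, and Mrps18b lies farthest out, at -1.66 and -0.82.

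In the small subunit, 2 members were higher and 7 lower at day 3, and 3 were higher and 8 lower at day 5, of 26. The share called, 34.6% and 42.3%, lay below the 50.9% and 52.5% of all genes. Over all genes 24.6% were higher and 26.2% lower at day 3, and 26.3% and 26.2% at day 5. The falls in the small subunit lay near that background. Mrps18b (gene identifier 66973; chr17:35910380-35916440), 1 of 3 mammalian relatives of the bacterial S18 protein, sits at a place of its own in the small subunit and fell furthest. It stood at 9.23, 6.58 and 8.86 CPM in KO libraries at day 3, against 27.2, 29.1 and 25.9 CPM in control libraries. At day 5 it stood at 10.1, 10.6, 10.2 and 10.02 CPM in KO libraries, against 17.7, 21.4, 20.9 and 12.6 CPM in control libraries. The groups do not overlap at either day, and the lowest control is replicate 4 at day 5. The log2 fold changes were -1.66 ± 0.17 at day 3 and -0.82 ± 0.14 at day 5 (SE; adjusted p = 4.47e-06 and 0.000251), and -0.97 at day 5 without that control. Mrps18c, which takes the S18 position in the small subunit, was at 10.99 ± 1.60 CPM in KO and 10.5 ± 1.09 CPM in control at day 3 (n = 3 each, SD), with log2 fold changes of 0.02 ± 0.16 at day 3 and -0.01 ± 0.13 at day 5, neither called. Mrps18a, which sits in the large subunit, had -0.04 ± 0.11 and 0.06 ± 0.090, not called either. Whether the effects differ between these genes was not tested.

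Mrps6 (121022; chr16:92058336-92112227), the homologue of bacterial S6, was the second most changed and, per kilobase of gene model, the most abundant small subunit mRNA. KO libraries held 38.98, 46.5 and 35.6 CPM at day 3, against 66.2, 87.6 and 67.8 CPM in control libraries. At day 5 KO libraries held 42.4, 33.5, 35.2 and 36.3 CPM, against 69.1, 77.5, 60.5 and 52.1 CPM in control libraries. Every KO library lies below every control of its day, for fold changes of -0.90 ± 0.15 and -0.81 ± 0.13 on the log2 scale (SE; adjusted p = 0.000287 and 0.000141). Mrps6 lies on the same strand as Slc5a3, the myo-inositol transporter gene, whose annotated start lies 52 bases away and which overlaps Mrps6 over 29152 bases. Slc5a3 was lower too, at -2.46 and -0.86, and the handling of reads from the shared part is not stated, so the values of both genes cannot be taken as separate measurements.

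Mrps16, a body protein needed for small subunit assembly and mutated in a human mitochondrial disorder, was at 10.8, 7.51 and 16.3 CPM in KO libraries at day 3, against 17.01, 20.6 and 19.2 CPM in control libraries. Its day 5 values were 10.98, 9.52, 14.4 and 12.5 CPM in KO libraries, against 17.6, 18.3, 21.4 and 19.4 CPM in control libraries. KO libraries are lower throughout, with a wide spread at day 3, where the log2 fold change was -0.64 ± 0.20 (SE; adjusted p = 0.0161) and the call was lost without KO replicate 2 or without control replicate 2 (adjusted p up to 0.0874). At day 5 the change was -0.68 ± 0.16 (adjusted p = 0.00312). Mrps27, a protein with pentatricopeptide repeats, had 23.4 ± 2.53 CPM in KO and 35.7 ± 2.59 CPM in control at day 3 (n = 3 each, SD) and changes of -0.59 ± 0.13 and -0.58 ± 0.11 (adjusted p = 0.00159 and 0.000449), with no overlap between groups at either day. Mrps10, a protein of the head, was the remaining small subunit gene lower at both days, at -0.46 ± 0.14 and -0.35 ± 0.12. Its calls were lost under upper-quartile scaling, with sex as a covariate and with single libraries left out (KO replicate 4 at day 3; KO replicate 1 and control replicates 1 and 2 at day 5), with adjusted p up to 0.146. Its groups overlap at day 5.

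Of the 5 head proteins 3 were lower and 1 higher at day 3, and 1 lower at day 5. The share called lay above that of all genes at day 3 (50.9%) and below it at day 5 (52.5%). Over all genes 26.2% were lower at each day. With 5 genes these counts do not set the head apart from other genes. Mrps9 was lower at day 3, at -0.25 ± 0.094, and Mrps7 higher, at 0.20 ± 0.081 (adjusted p = 0.0373 and 0.0473). Both calls were lost with DESeq2, with a fit of the day 3 groups alone and with most single libraries of day 3 left out. Mrps25, specific to mitochondria, was the clearest rise: 24.4, 22.1 and 26.9 CPM in KO libraries at day 3, against 17.9, 17.8 and 17.2 CPM in control libraries, with no overlap (0.49 ± 0.093, adjusted p = 0.000582). At day 5 its change was 0.12 ± 0.076 and was not called. Mrps12, the decoding-centre protein, was at 0.10 ± 0.14 at day 3 and -0.32 ± 0.11 at day 5, and the second value was called (adjusted p = 0.03) but not under upper-quartile scaling, without scaling factors, or without KO replicate 1, 2 or 4 or control replicate 2 or 4. Mrps26 and Mrps35 were lower at day 5 (-0.44 and -0.26), and Mrps17, Mrps28 and Mrps31 higher (0.28, 0.35 and 0.30). The call of Mrps35 was kept in 11 of 23 alternatives and that of Mrps28 in 6, while the call of Mrps31 was lost without KO replicate 3 or 4 or control replicate 1 (adjusted p up to 0.0689). Mrps22 and Mrps34, both mutated in human mitochondrial disease, had changes of 0.00 ± 0.12 and 0.16 ± 0.11 at day 3 and 0.05 ± 0.10 and -0.10 ± 0.087 at day 5 and were not called.

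In the large subunit, 8 members were higher and 12 lower at day 3, and 11 higher and 12 lower at day 5, of 51. The share called was 39.2% and 45.1%, below the 50.9% and 52.5% of all genes. The factor-binding stalk, which recruits translation factors, held 4 members, of which 1 was higher and 1 lower at day 3 and 2 higher and 1 lower at day 5. Mrpl12 (56282; chr11:120484637-120488754), the stalk protein present in several copies, was at 33.5, 26.8 and 27.98 CPM in KO libraries at day 3, against 44.5, 47.4 and 41.4 CPM in control libraries. At day 5 it was at 30.2, 31.2, 30.9 and 29.8 CPM in KO libraries, against 46.8, 50.03, 49.5 and 38.5 CPM in control libraries. KO libraries were lower without overlap, with changes of -0.57 ± 0.11 and -0.60 ± 0.090 on the log2 scale (SE; adjusted p = 0.000647 and 9.15e-05), and the call held in each alternative other than the 1.5-fold minimum. Mrpl10, the stalk base to which Mrpl12 binds, was higher in KO. It had 62.3, 54.5 and 60.9 CPM in KO libraries at day 3, against 44.9, 47.6 and 46.1 CPM in control libraries (0.37 ± 0.072, adjusted p = 0.000753). At day 5 it had 0.16 ± 0.061 (adjusted p = 0.036), a call lost in 9 of 23 alternatives, among them the fits without KO replicate 1, 2 or 3 or control replicate 2 or 3. Mrpl11, next to the stalk, was at 0.28 ± 0.12 and 0.33 ± 0.098 and called at day 5 (adjusted p = 0.0115).

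Around the peptide exit tunnel, 9 members were assigned. At day 3, 4 of these were lower and 1 higher, and at day 5, 2 were lower and 1 higher. The share called was 55.6% and 33.3% (all genes: 50.9% and 52.5%). Mrpl17 (27397; chr7:105803782-105811087) was at 31.1, 32.7, 32.8 and 30.9 CPM in KO libraries at day 5, against 48.2, 54.1, 53.5 and 51.3 CPM in control libraries. The groups are well apart at day 5 (-0.70 ± 0.067, adjusted p = 1.75e-06), the smallest adjusted p of any member at that day, and closer at day 3 (-0.30 ± 0.080, adjusted p = 0.00628; not called under upper-quartile scaling or with the day 3 groups alone). Mrpl45, which ties the exit site to the inner membrane, had 53.8 ± 5.22 CPM in KO and 74.5 ± 3.79 CPM in control at day 3 (n = 3 each, SD) and changes of -0.45 ± 0.083 and -0.27 ± 0.071 (adjusted p = 0.000467 and 0.00586). Under upper-quartile scaling the call at day 5 was lost (adjusted p = 0.0893). Mrpl47 had changes of -0.74 ± 0.20 at day 3, called, and 0.03 ± 0.16 at day 5, not called, and the difference between the days was not called either. Mrpl4, whose bacterial relative lines the tunnel wall, was higher at both days, with 34.7, 30.5 and 28.4 CPM in KO libraries at day 3, against 20.8, 23.5 and 22.6 CPM in control libraries. The groups do not overlap (0.49 ± 0.11 and 0.37 ± 0.093, adjusted p = 0.00216 and 0.0039). Mrpl44 was not called, at 0.05 ± 0.13 and 0.04 ± 0.11.

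The central protuberance, which in mammals holds a tRNA where bacterial ribosomes have a separate small rRNA, held 8 members. Of these 3 were lower and 2 higher at day 3 and 4 lower and 2 higher at day 5. The share called was 62.5% and 75.0% (all genes: 50.9% and 52.5%). Mrpl52 was lowest relative to control in the large subunit at day 3, at 16.9, 14.1 and 21.5 CPM in KO libraries, against 24.8, 36.5 and 33.2 CPM in control libraries. The groups are apart at both days (-0.81 ± 0.16 and -0.51 ± 0.13, adjusted p = 0.000832 and 0.00473). Mrpl38 and Mrpl40 were lower at both days, at -0.61 and -0.34 and at -0.35 and -0.51, while under upper-quartile scaling the day 5 call of Mrpl38 (adjusted p = 0.067) and the day 3 call of Mrpl40 (adjusted p = 0.0552) were lost. The Mrpl40 call at day 3 was also lost with the day 3 groups alone (adjusted p = 0.0675). Mrpl48 was higher at both days, at 0.54 and 0.45, and its day 3 call was lost without KO replicate 4 or control replicate 3 (adjusted p up to 0.0925). Mrpl55, the L31 homologue, was higher at day 5 (0.43, adjusted p = 0.0111). Mrpl58, a peptidyl-tRNA hydrolase built into the ribosome, was at 0.17 ± 0.15 and 0.28 ± 0.12 and not called.

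Among the remaining large subunit members, Mrpl27 and Mrpl49 were the most raised. Mrpl27 (94064; chr11:94653770-94661932), whose bacterial relative reaches the peptidyl transferase centre, was at 15.3, 17.4 and 16.4 CPM in KO libraries at day 3, against 8.45, 12.4 and 10.1 CPM in control libraries. At day 5 it was at 15.1, 15.5, 17.2 and 17.4 CPM in KO libraries, against 12.1, 11.2, 14.3 and 10.2 CPM in control libraries. No KO library falls to the level of a control, and the changes were 0.64 ± 0.15 and 0.46 ± 0.12 (SE; adjusted p = 0.00312 and 0.00657). Mrpl49 (18120; chr19:6053630-6057755), specific to mitochondria, was at 25.8, 27.2 and 27.98 CPM in KO libraries at day 3, against 16.9, 17.8 and 18.01 CPM in control libraries. Its rise was 0.61 ± 0.096 at day 3 and 0.35 ± 0.078 at day 5 (adjusted p = 0.000131 and 0.00187), again without overlap. Mrpl33 was higher at both days (0.42 and 0.32) and Mrpl15 lower (-0.52 and -0.31). Mrpl51 was lower and Mrpl1, of the L1 stalk, higher at day 5 (-0.36 and 0.32), and the call of Mrpl51 was lost under upper-quartile scaling (adjusted p = 0.0582). Mrpl3, near the catalytic centre, was at 0.11 ± 0.11 and 0.09 ± 0.092 and not called. Mrps30, placed in the large subunit, was at -0.27 ± 0.097 at day 3, a call (adjusted p = 0.0314) kept in 12 of 23 alternatives. Members counted as bacterial relatives gave 5 higher and 11 lower of 46 at day 3 and 10 and 11 at day 5. Those counted as mitochondria-specific, Mrps18a and Mrps18b among them, gave 5 higher and 8 lower of 31 and then 4 and 9. The shares called were 34.8% and 45.7% in the first class and 41.9% at both days in the second (all genes: 50.9% and 52.5%).

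**Figure D2:**
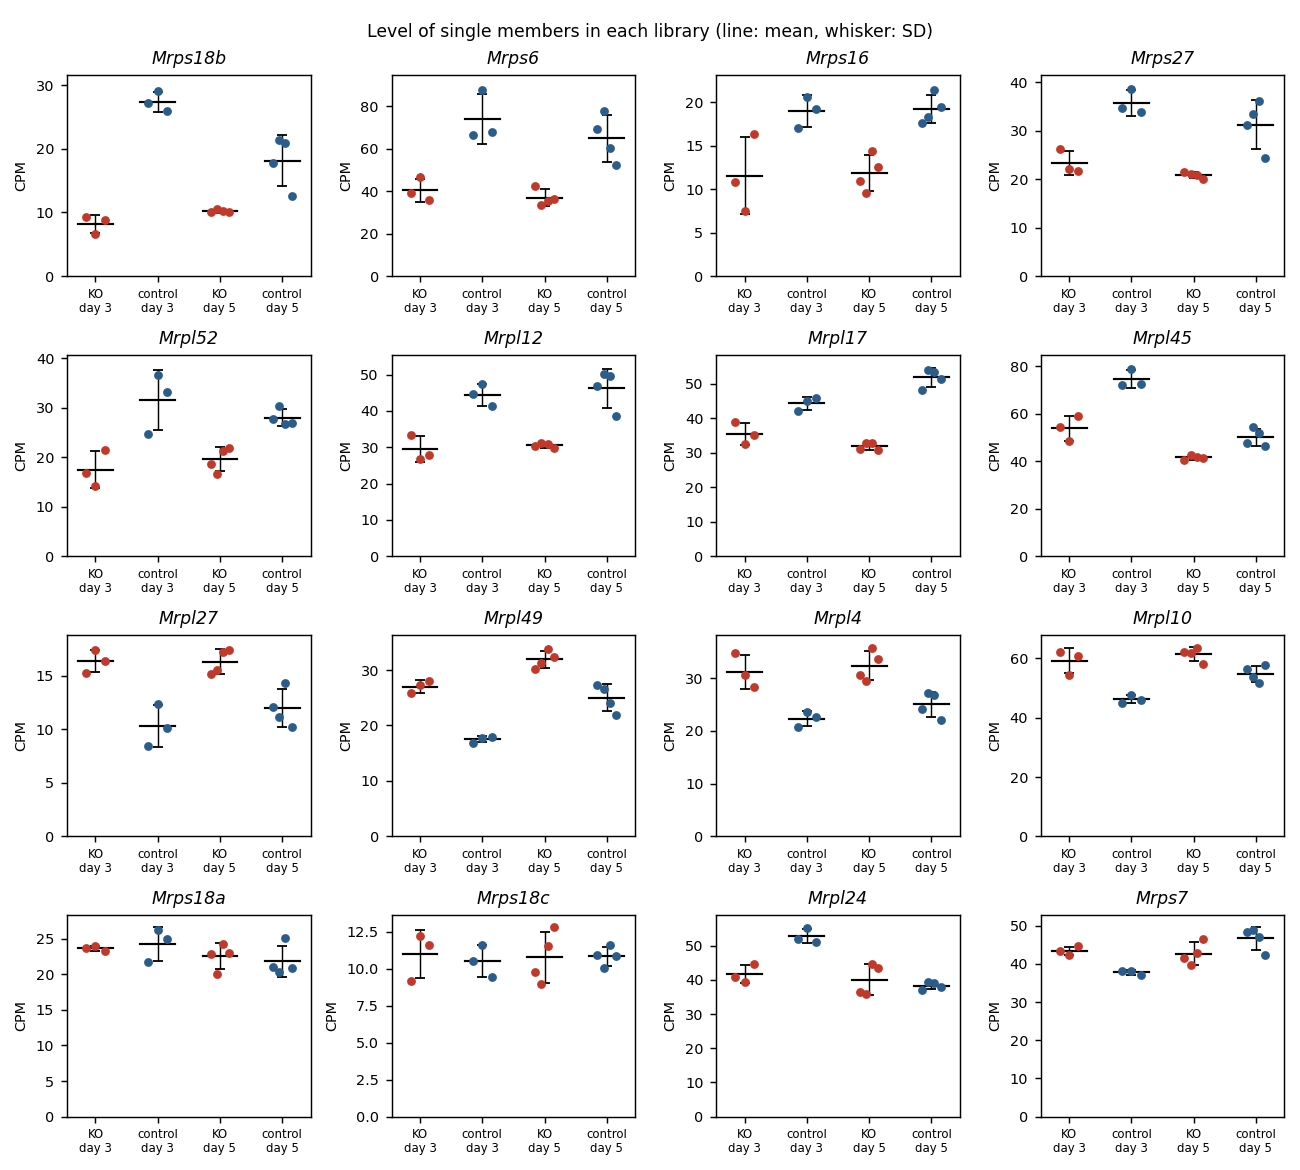
CPM of single members in each library, with KO to the left of control at each day; the horizontal line is the mean and the whisker 1 SD. The rows show members lower in KO (the first and second), members higher in KO (the third), and the S18 relatives Mrps18a and Mrps18c with 2 members whose KO effect differed between the days, Mrpl24 and Mrps7 (the last).

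Summed over their genes, the small subunit was lower in KO cells relative to the large one. At day 3 the small subunit genes summed to 574 ± 7.8 CPM in KO and 653 ± 33.8 CPM in control (n = 3 each, SD), 88.0% of control, and the large subunit genes to 1326 ± 50.7 and 1412 ± 65.4 CPM, 93.9%. At day 5 the small subunit genes summed to 570 ± 23.2 CPM in KO and 628 ± 34.6 CPM in control (n = 4 each), 90.7%, and the large subunit genes to 1323 ± 39.8 and 1368 ± 54.3 CPM, 96.7%. KO and control libraries did not overlap in either sum at day 3 and overlapped in both at day 5. Under upper-quartile scaling, added after the sums were seen, the large subunit sum in KO was 102.5% of control at day 3 and 105% at day 5, and the small subunit sum 96.1% and 98.5%, with overlap throughout. Without scaling factors the large subunit sum was 92.2% and 101.3% and the small one 86.4% and 94.9%. The direction of the large subunit sum thus depended on the scaling, whereas the ratio within a library does not depend on it. The ratio of large to small was 2.347, 2.191 and 2.392 in KO libraries at day 3, against 2.177, 2.152 and 2.165 in control libraries. At day 5 it was 2.332, 2.356, 2.309 and 2.298 in KO libraries, against 2.161, 2.168, 2.151 and 2.239 in control libraries. KO ratios lie above control ratios in each library at both days, and the lowest of them belongs to the shallow KO library at day 3. The mean ratio in KO over that in control was 1.067 at day 3 and 1.066 at day 5, and lay between 1.048 and 1.095 when any single library was left out. No test was made of these sums. Without Mrps18b and Mrps6, a choice made after their values were seen, the ratio in KO over control was 0.985 at day 3 and 1.01 at day 5, and the ranges of KO and control libraries overlapped. Without Mrps6 alone it was 1.018 and 1.023, and the ranges overlapped at both days. Without Mrps18b alone it was 1.037 and 1.055, with overlap at day 3 only. Since Mrps6 and Slc5a3 cannot be taken as separate measurements, the part of Mrps6 in the ratio is uncertain. Of the difference in the small subunit sum, KO minus control, -78.4 CPM at day 3 and -58.7 CPM at day 5, Mrps6 made up -33.5 and -27.9 CPM and Mrps18b -19.2 and -7.92 CPM.

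**Figure D3:**
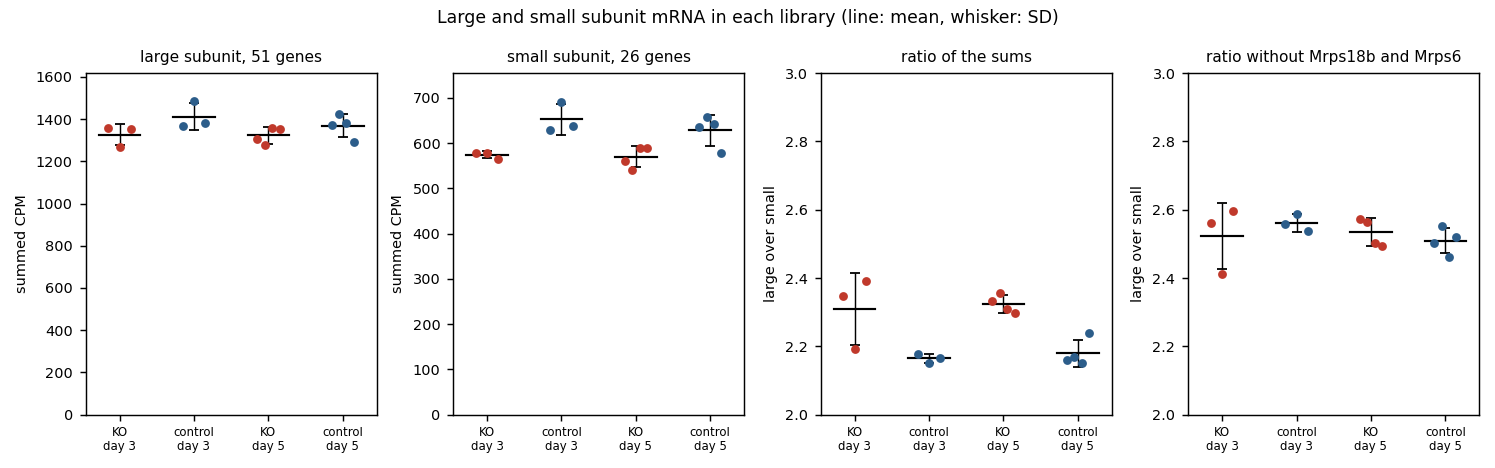
Summed CPM of the large and small subunit genes, their ratio, and the ratio without Mrps18b and Mrps6, for each library with KO left of control; lines are means and whiskers 1 SD, and the ratio axes do not start at 0. KO ratios of 2.19 to 2.39 lie above control ratios of 2.15 to 2.24 within each day in the third panel and overlap them in the fourth.

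Per kilobase of gene model, the scale on which genes can be compared, levels averaged over all libraries ran from 1.26 CPM per kb (Mrps36) to 78.7 (Mrpl33). Mrpl33, Mrpl52 and Mrpl30 led the large subunit (78.7, 58.4 and 57.9 CPM per kb), and Mrps6, Mrps21 and Mrps15 the small one (68.6, 42.2 and 40.1). At the low end were Mrpl23 (1.86), Mrpl41 (4.89) and Mrpl1 (5.08) of the large, and Mrps33 (2.31), Mrps25 (3.77) and Mrps5 (9.73) of the small subunit. Mrps25, Mrpl1 and Mrpl41 have gene models of 6076, 4170 and 2423 bases and reached 924, 871 and 361 counts in a library. Mrps36, Mrpl23 and Mrps33 reached at most 24, 35 and 68 counts in any library. Mrps36 was at -0.46 ± 0.38 and -0.28 ± 0.31 in KO over control and was not called. Many genes of ribosomal proteins have processed copies elsewhere in the genome, how reads that fit several places were treated is not stated, and the levels of these 3 genes are uncertain. Mrps21 varied widely within groups, with 16.8 ± 7.25 CPM in KO at day 3 (SD, n = 3) and 15.2 ± 5.56 CPM in control, and was not called.

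Between the days, more members were called in control than in KO cells, as was the case for all genes. The shares of members called, 32.1% in control and 5.13% in KO, lay below those of all genes. KO replicate 1 and control replicates 2 and 4 at day 5 came from embryos without a day 3 library. In control, 11 members were higher and 14 lower at day 5 than at day 3 (all genes: 38.3% called, 18.3% higher and 19.9% lower). In KO, 1 was higher and 3 lower (all genes: 12.0% called, 4.98% higher and 7.06% lower). With the embryo as a replicate block, which pairs days within an embryo, the counts were 7 higher and 5 lower in control and 1 higher and 1 lower in KO. Among all 14327 genes that fit gave 2046 higher and 2247 lower in control and 753 and 1024 in KO. Mrpl33 was higher at day 5 in both genotypes, at 45.7, 44.04, 44.6 and 49.04 CPM in KO libraries at day 5, against 32.7, 33.3 and 38.5 CPM in KO libraries at day 3. The days do not overlap (0.39 ± 0.11 in KO, adjusted p = 0.0276, and 0.49 ± 0.11 in control, 0.0021), but the call in KO was lost without day 3 replicate 2 or 3 or day 5 replicate 1, 3 or 4. Mrpl45 was lower at day 5 in both, at -0.39 ± 0.078 in KO and -0.58 ± 0.076 in control (adjusted p = 0.00477 and 4.16e-05). Mrpl30 and Mrps35 were lower at day 5 in KO (-0.36 and -0.39) and in control (-0.41 and -0.32), and with the embryo block their calls in KO were lost. The calls in control further included the falls of Mrps18b (-0.60), Mrpl24 (-0.47) and Mrps9 (-0.39) and the rises of Mrpl49 (0.51), Mrpl18 (0.50) and Mrps25 (0.41). The call of Mrps9 was lost with the embryo block (adjusted p = 0.0568).

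The KO effect itself differed between the days for 4 members (all genes: 14.3% called, 7.16% in the higher and 7.15% in the lower direction), 5.13% of them and below the background, 2 in each direction. Mrps18b was less reduced at day 5 than at day 3, with a difference of 0.84 ± 0.22 between the log2 fold changes (SE; adjusted p = 0.0223). Its level in KO was 10.2 ± 0.246 CPM at day 5 and 8.22 ± 1.44 CPM at day 3, and in control 18.1 ± 4.05 and 27.4 ± 1.56 CPM, with day 5 over day 3 at 0.24 ± 0.17 in KO (not called) and -0.60 ± 0.15 in control (adjusted p = 0.00519). Without control day 5 replicate 4 it was 0.68 and still called, and without control day 3 replicate 2 it was 0.79 and not called (adjusted p = 0.0569). Mrpl24, at the tunnel exit, was at 0.07 at day 5 and -0.34 at day 3 (difference 0.40 ± 0.12, adjusted p = 0.0399). Mrpl17 was further reduced at day 5 (difference -0.40 ± 0.10, adjusted p = 0.0209), and Mrps7 was at -0.13 at day 5 and 0.20 at day 3 (difference -0.33 ± 0.10, adjusted p = 0.0466). With the embryo as a replicate block the call of Mrps18b alone was kept. The calls of Mrpl24 and Mrps7 were kept in 10 and 6 of 23 alternatives and that of Mrpl17 in 20, lost without KO day 3 replicate 2, without scaling factors and with the embryo block.

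Many mitoribosomal genes share a promoter region with a neighbour. A head-to-head gene on the opposite strand starts within 1000 bases of 35 members (44.9%), against 17.8% of tested genes. At day 3 the neighbour was called too in 4 of the 12 pairs whose member was called, 2 in the same and 2 in the opposite direction, and at day 5 in 8 of 14, 4 and 4, where 50.9% and 52.5% of all genes were called. Mrpl49 starts 59 bases from Fau, which encodes a ubiquitin-like protein fused to cytosolic ribosomal protein S30. Fau was lower in KO, at -1.37 and -0.81, where Mrpl49 was higher. Mrps18b starts 45 bases from Ppp1r10, a regulator of protein phosphatase 1, which was at -0.20 at day 3, not called, and -0.28 at day 5. Mrpl27 starts 197 bases from Eme1, a nuclease subunit, at 1.33 (called) and 0.42 (not called), and Mrpl48 overlaps the Golgi GTPase gene Rab6a, at -0.78 and -0.86. Mrps12 starts 172 bases from Sars2, the mitochondrial seryl-tRNA synthetase gene, at 0.60 and 0.55. Mrpl46 and Mrps11 are themselves a head-to-head pair. In all, 25 members overlap another gene of the files, 3 of them on the same strand, and since it is not stated whether strand was used in counting, reads of overlapping neighbours cannot be told apart from those of the member.

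Mitoribosomal proteins without an Mrp symbol gave 2 lower of 5 at day 3 and 3 lower of 5 at day 5. Over all genes 50.9% and 52.5% were called, 26.2% as lower at each day. Gadd45gip1, a large subunit protein at the tunnel exit, was lower at both days, at -0.55 ± 0.10 and -0.56 ± 0.085 (SE; adjusted p = 0.00051 and 9.25e-05). The small subunit protein gene Chchd1 was lower at day 3 (-0.65), and Aurkaip1 and Dap3 at day 5 (-0.27 and -0.20). Assembly and rRNA factors gave 3 higher and 5 lower of 26 at day 3 (30.8% called) and 10 higher and 2 lower at day 5 (46.2% called). The GTPase gene Gtpbp6 fell most at day 3, with changes of -1.10 ± 0.12 and -0.30 ± 0.10 (adjusted p = 6.31e-06 and 0.0208). Mrm1, a methyltransferase of the large rRNA, was at -0.86 and -0.48 and fell most at day 5. The small rRNA methyltransferase gene Mettl15 (0.66 and 0.57) and the GTPase genes Mtg1 (0.48 and 0.58) and Noa1 (0.41 and 0.47) were higher at both days. Ddx28 and Mterf3 were higher at day 5 (0.61 and 0.48), and Trub2 was lower at day 3 and higher at day 5 (-0.38 and 0.21).

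Translation factors gave 4 higher and 4 lower of 16 at day 3 and 6 higher and 3 lower at day 5. The initiation factor gene Mtif2 was higher at both days, at 0.53 ± 0.072 and 0.41 ± 0.060 (adjusted p = 4.22e-05 and 6.13e-05), and Lrpprc, which stabilises mitochondrial mRNAs, lower, at -0.67 ± 0.096 and -0.44 ± 0.082 (adjusted p = 6.36e-05 and 0.00046). Mtres1 was lower (-0.65 and -0.43) and Taco1, an activator of cytochrome oxidase translation, higher (0.31 and 0.32). Enzymes that charge mitochondrial tRNAs gave 5 higher and 3 lower of 20 at day 3 and 6 higher and 1 lower at day 5. Hars2 (0.40 and 0.61) was higher at both days, and Iars2 lower (-0.29 and -0.23). Genes of mitochondrial DNA transcription and maintenance gave 1 higher and 1 lower of 12 at day 3 (16.7% called). At day 5 they gave 7 higher and 1 lower (66.7% called; all genes: 50.9% at day 3 and 52.5% at day 5). Tfb2m, a transcription initiation factor, was higher (0.56 and 0.33) and the topoisomerase gene Top1mt lower (-0.63 and -0.47).

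Nuclear regulators of mitochondrial genes gave 2 higher and 5 lower of 11 at day 3 and 3 higher and 4 lower at day 5. The share called was 63.6% at each day (all genes: 50.9% and 52.5%). Esrra, an orphan nuclear receptor, was lower at both days, with changes of -0.80 ± 0.094 and -0.73 ± 0.076 on the log2 scale (adjusted p = 1.14e-05 and 3.47e-06). The coactivator gene Pprc1 (-0.77 and -0.47) and Yy1 (-0.40 and -0.59) were lower at both days, and Gabpb2, a subunit of GABP, was higher (0.47 and 0.63). Ppargc1a, a coactivator gene, was called higher at both days but at low levels, with 0.616 ± 0.680 CPM in KO and 0.209 ± 0.0856 CPM in control at day 3 (n = 3 each, SD), where the groups overlap and 1 KO library was at 0. Of the 15 genes of mitochondrial DNA measured, 3 were higher and 2 lower at day 3 (33.3% called) and 7 higher at day 5 (46.7% called). Both ribosomal RNAs were lower at day 3 (mt-Rnr1 -0.79 ± 0.26, mt-Rnr2 -0.87 ± 0.16; adjusted p = 0.0261 and 0.000686) and not called at day 5 (-0.07 and -0.16). ND4, ND5 and CYTB, which encode respiratory chain subunits, were higher at both days, at 0.76, 0.86 and 0.65 at day 3 and 0.67, 0.62 and 0.52 at day 5. Of the 15 genes, all KO libraries lay above all control libraries for only 1 at day 3 and 2 at day 5 (all genes: 28.2% and 23.5%). They lay below for 2 and 0. The 15 genes summed to 7690 to 13800 CPM in KO and 8050 to 9440 CPM in control at day 3. At day 5 the sums were 10800 to 16600 and 8140 to 11100 CPM. Since the libraries were made from polyadenylated RNA, these counts hold only the polyadenylated part of each mitochondrial RNA. Cytosolic ribosomal protein genes, for comparison, were lower in 64 of 83 cases at day 3 and 38 of 83 at day 5, against 26.2% of all genes. Their medians were -0.94 and -0.45, against -0.07 and -0.02 for the mitoribosomal members.

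**Figure D4:**
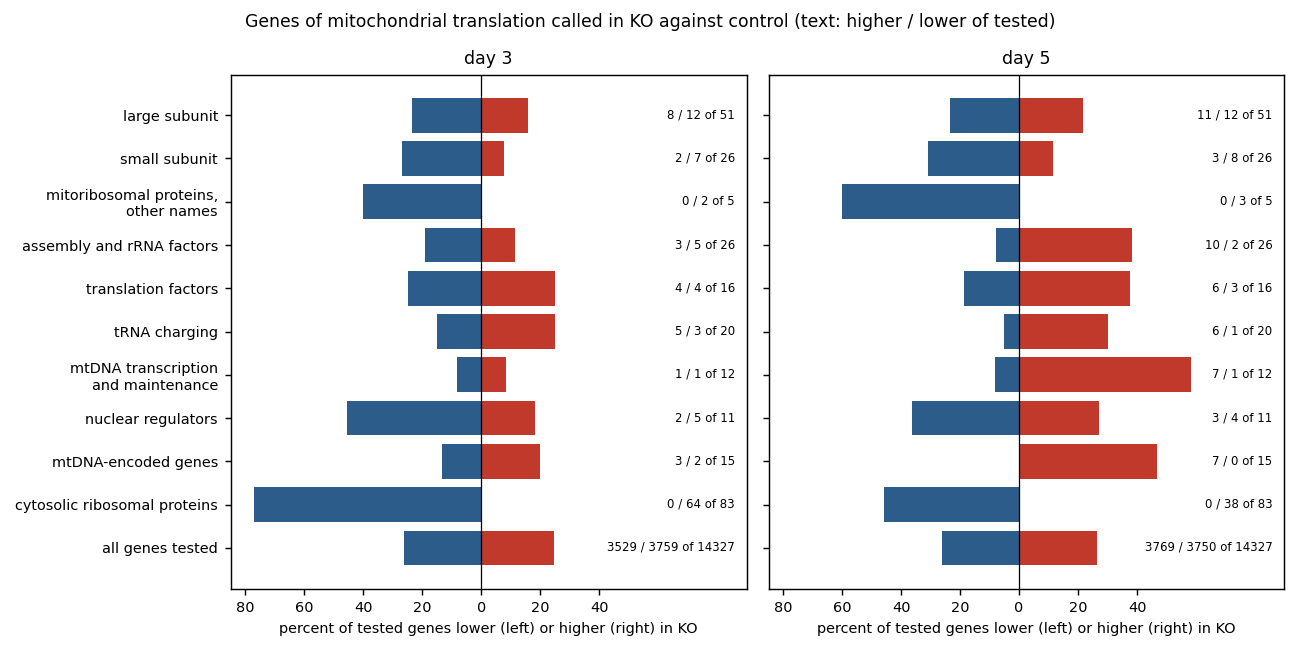
Percentage of the tested genes of each list called lower (blue, left) or higher (red, right) in KO at day 3 and day 5, with the counts written at the right of each bar and all tested genes in the last row. The bars of both mitoribosomal subunits are no longer than those of all genes except for falls in the small subunit, 7 and 8 of 26, whereas cytosolic ribosomal proteins have 64 and 38 falls of 83.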

How the data were processed

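RNA was measured in 14 libraries made with a stranded kit for polyadenylated RNA and read in pairs, per the labels' protocols. The authors deposited 1 table of raw read counts per gene for each library, made with featureCounts on mm10, per the submitters' processing notes. The aligner, the annotation, the strand setting and the handling of reads that fit several places are not stated there. Each table has 27179 lines, of which 909 carry no gene identifier and hold 0.194% to 0.315% of the counts. These lines were left out. Xist, Tsix and the genes of chromosome Y, 112 genes in all, were left out of the fit, and other genes of the X chromosome were kept. Symbols were matched to RefSeq's GRCm38.p6 for 25275 of 26270 identifiers, and strands and neighbours to GENCODE vM21.

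Counts were filtered with filterByExpr, scaled by TMM and fitted over all 14 libraries with edgeR 4.0.16 (limma 3.58.1, R 4.3.3), 1 coefficient per group, with a robust quasi-likelihood test of 5 contrasts and Benjamini-Hochberg adjustment over 14327 genes. A call is an adjusted p below 0.05. The steps were tested on simulated data. Alternatives were other scalings, no filter, sex as covariate, a 1.5-fold minimum, blocks, fits of 2 groups, summing the controls that share an embryo, DESeq2 1.42.0 and each library left out. Named members are, in each subunit, the 5 called members with the largest rise and the 5 with the largest fall at each day, 3 in each direction by smallest adjusted p in the other contrasts, 16 fixed by role, and the 3 highest and 3 lowest by level. For other lists up to 3 genes in each direction were eligible. Members, lists and roles were chosen with earlier results of these data known.

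Embryo labels pair days within a genotype. Deviations of libraries from their group means correlated at -0.0166, -0.0229 and 0.204 between days of the same KO embryo and at 0.02, 0.0767 and -0.0228 for control embryos. Equal replicate numbers across genotypes mark different embryos and pair nothing. Depth ran from 2187168 to 39203154 counts, and low members are least precise in KO day 3 replicate 3.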

Additional observations from a re-analysis of the deposited data

Results flagged for a closer look

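In KO at day 5, Mrps9 stood at 28.0 CPM in replicate 2, well below the other 3 libraries of its group. In control at day 5, Mrps18a stood at 25.1 CPM in replicate 3, well above the other 3. These were 2 of the 102 groups of 4 libraries examined, and chance gives about 1 in 20.

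The KO effect differed between day 5 and day 3 by the interaction test of edgeR for 4 members. The difference of log2 fold changes, day 5 minus day 3, was 0.84 for Mrps18b and 0.40 for Mrpl24. It was -0.40 for Mrpl17 and -0.33 for Mrps7.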

How the results depend on the processing

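Against a 1.5-fold minimum, members higher and lower numbered 0 and 2 at day 3. They numbered 0 and 0 at day 5, in the difference of KO effects and between days in KO or control. Over all 14327 genes the counts were 1372 and 907 at day 3, 1058 and 652 at day 5, and 93 and 74 in the difference. Between days they were 16 and 122 in KO and 541 and 600 in control. Kat5 at day 3 was -0.684 (adjusted p = 0.25, edgeR). With upper-quartile scaling 12 members were lower at day 3 and 10 at day 5 (all genes: 2790 and 2761). Without scaling factors 13 were lower at day 5, the difference of KO effects gave 5 higher and 0 lower, and day 5 against day 3 in KO 4 and 1. All genes then gave 3103 lower at day 5, 1508 and 705 in the difference, and 1679 and 626 between days in KO. The difference of KO effects gave 1 higher and 1 lower without the filter or with the same-embryo controls summed. All genes gave 742 and 935 of 20031 without the filter, and 916 and 890 of 14689 with those controls summed. With the replicate block by number, 9 were higher and 16 lower at day 3, 12 and 19 at day 5, and 1 lower in the difference. All genes gave 3320 and 3543 at day 3, 3989 and 3884 at day 5, and 1123 lower in the difference. With the replicate block by embryo, the difference gave 1 higher and 0 lower, day 5 against day 3 gave 1 lower in KO, and 7 higher and 5 lower in control. All genes gave 696 and 865 in the difference, 1024 lower in KO, and 2046 and 2247 in control. The ratio of large to small, KO over control, was 1.018 (day 3) and 1.023 (day 5) without Mrps6, 0.985 and 1.01 without Mrps18b and Mrps6, all chosen after seeing the data, and 1.102 at day 5 per kb. The causes were not tested.

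With each library left out, members higher numbered 8 to 11 at day 3 and 10 to 15 at day 5, lower 15 to 20 and 14 to 22. Between days in control 8 to 12 were higher and 10 to 15 lower. In KO 0 to 2 were higher (0 without KO day 3 replicate 2 or 3 or KO day 5 replicate 1, 3 or 4, and 2 without control day 5 replicate 4) and 1 to 3 lower (1 without KO day 3 replicate 4 or KO day 5 replicate 1, 3 or 4). The difference of KO effects gave 0 to 2 higher (0 without control day 3 replicate 2; 1 without KO day 3 replicate 3, KO day 5 replicate 3 or 4, control day 3 replicate 1 or 3 or control day 5 replicate 2 or 3) and 0 to 4 lower (0 without KO day 3 replicate 2, 4 without control day 5 replicate 4; 1 without KO day 3 replicate 4, KO day 5 replicate 1, 2 or 3, control day 3 replicate 1 or 3 or control day 5 replicate 1, 2 or 3). Kat5 ranged from -0.753 to -0.613 at day 3 and -0.786 to -0.716 at day 5, and the ratio from 1.048 to 1.095 and 1.061 to 1.076. Of 53 called KO results of named members, 34 kept the call in every alternative but the 1.5-fold minimum. Over 2746 values of named members, 51 changed sign, none of them called.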
